A study of Homo sapiens with 2 samples.

Results

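The solute carriers are membrane proteins that move sugars, amino acids, metals, ions, nucleosides and other small molecules down or against their gradients, and their gene names carry a family number that follows shared sequence and, in most families, a shared substrate. The genes described here are those in the table whose name starts with SLC, a family number and a letter, or with SLCO and a number; SLC2A1 and SLC16A3 were left out of the set. The set held 39 of the 1947 genes in the table, in 22 families. SLCO genes numbered 0. Of the 39, 38 encode carriers and 1, SLC26A4-AS1, is an antisense RNA whose name matched the pattern. The rule goes by name and reads no value, but it was written with earlier results of these data known, and both genes left out of it were lower with ebastine.

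Some background helps in reading the families. Carriers at the cell surface set what a cell can take up or release, while others sit in the membranes of lysosomes, endosomes, the Golgi apparatus or mitochondria and move solutes between the cytosol and these compartments. Prostate epithelium is known for its high zinc content, so zinc importers (the SLC39 or ZIP family) and zinc exporters (the SLC30 or ZnT family) are of particular interest in this tissue. Amino acid carriers of the SLC7 and SLC43 families are known for feeding growing prostate cancer cells with leucine, other neutral amino acids and cystine.

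Cells of the C4-2 line, an established androgen-independent derivative of the human prostate cancer line LNCaP, were grown at passage 10 to 15 in medium with fetal bovine serum. One culture received ebastine, an antihistamine that blocks the histamine H1 receptor, and the other received vehicle. The study's title presents EZH2, a histone methyltransferase, as what the drug acts on. The sources used here give neither the dose nor the time of exposure. Polyadenylated RNA of 1 library per group was sequenced, so no spread between replicates exists, the ratios below compare single libraries and carry no error, and no p-value of the treatment was computed.

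Values are FPKM, fragment numbers scaled to transcript length and to the size of the library, which allow levels to be compared between genes. How the size of the library was set is not given. The ratio used throughout is log2((FPKM with ebastine + 1)/(FPKM with vehicle + 1)), and a fold is that ratio without the logarithm, so it understates the difference of genes near or under 1 FPKM. The table holds no counts, so depth is unknown and counting intervals cannot be given. The table lists only genes with a p-value under 0.05 in the authors' own test of the libraries, 14.2% of the 13714 genes that the deposited q-values imply were tested. A listed gene therefore had to differ, and the counts below describe the listed members and not all solute carriers. Of 396 protein-coding genes with such names in the reference (RefSeq, GRCh38.p14), 38 or 9.60% were in the table; how many of the rest were tested is unknown. Of 11 luminal prostate markers 6 were in the table, 3 higher (FOLH1, STEAP2 and ACPP) and 3 lower (KLK3, KLK2 and TMPRSS2). The most abundant was KLK3, at 1599 FPKM with ebastine and 2476 FPKM with vehicle. Among markers of cells other than these, 0 of 3 basal, 0 of 3 stromal, 0 of 3 endothelial and 0 of 4 leukocyte genes were in the table, which gives them no value here.

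More of the listed solute carrier genes were higher than lower in ebastine-treated cells, by small amounts on the ratio used here. Of the 39 members, 26 were higher and 13 lower. Among the 34 that averaged 1 FPKM or more, 23 were higher and 11 lower, or 67.6% higher, while of all 1768 listed genes at that level 43.0% were higher and 57.0% lower. The median of their log2 ratios was 0.35, or 1.27-fold, beside -0.32 for all listed genes. Of the 34, 2 were at least 1.5-fold higher (SLC35F6 and SLC30A4) and 2 at least 1.5-fold lower (SLC16A6 and SLC16A10). That is 5.88% in each direction, beside 9.67% of all listed genes higher and 18.6% lower by that limit, and 0 members reached 2-fold, a limit passed by 1.81% of all listed genes upwards and 4.86% downwards. The nearest member outside the limit was SLC22A15, 1.44-fold higher. Its log2 fold change in the authors' deposited table, computed without the added 1 FPKM, was 0.97. The ratios of the 34 ran from -0.71 to 0.82, inside the range of -1.81 to 3.87 over all listed genes.

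How many members passed 1.5-fold depended on the scaling chosen. Equal sums left 2 higher and 2 lower, whereas other scalings moved the counts. Because of the p-value limit no ratio of the 34 was closer to 0 than 0.29, so a common shift moves many members across the limit together. Centring sets the median ratio of listed genes above a mean of 10 FPKM to 0, which adds 0.34 to the ratio of a well-expressed gene. Then 20 members were at least 1.5-fold higher and 0 lower. The listed genes had all passed the p-value limit and more were lower, so their median is itself the ratio of a lower gene. An ordinary lower member therefore lands near 0 after centring and a higher one moves outwards. Centring on such a list cannot show which scaling is right. No member changed direction under that centring, under upper quartile scaling or under equal sums. These scalings all raised the ebastine values, so only lower members could have changed direction. Each of these was computed over listed genes only. In the authors' deposited table, 14 of the 39 members were under a q-value of 0.05, 8 higher and 6 lower, or 35.9% of members. Of all listed genes 41.0% had such a q-value, 15.6% being higher and 25.4% lower. That test was made on 1 library per group and compares these libraries.

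**Figure D1:**
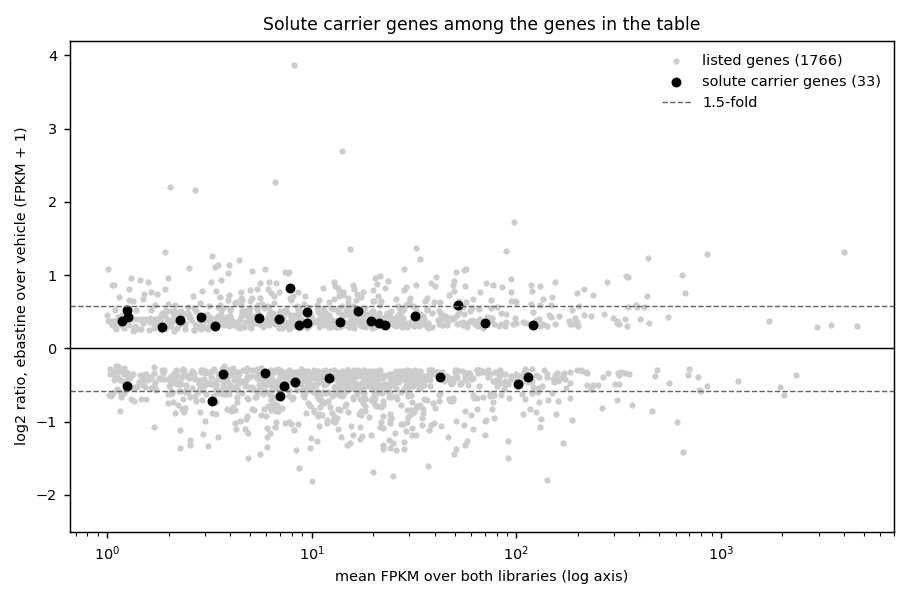
Log2 ratio of ebastine over vehicle (FPKM + 1) against the mean FPKM over both libraries, on a log axis, for 1766 listed genes (grey) and 33 solute carrier genes (black) that averaged 1 FPKM or more; dashed lines mark 1.5-fold. The gap around 0 is where the authors' p-value limit removed genes, and 4 solute carrier genes lie beyond the dashed lines, 2 on each side.

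Levels spanned a wide range. The most abundant member was SLC50A1, a sugar transporter of the SWEET family (chromosome 1, 155108288 to 155111334 in hg19), at 134.5 FPKM with ebastine and 107 FPKM with vehicle, a log2 ratio of 0.32. Next were SLC39A8, SLC43A1, SLC44A4 and SLC30A4, each with a mean of at least 50 FPKM. A further 19 members lay between 5 and 50 FPKM, 10 between 1 and 5, and 5 under 1 FPKM. The abundant members did not share a direction, since SLC50A1, SLC44A4 and SLC30A4 were higher and SLC39A8 and SLC43A1 lower with ebastine. The authors' deposited table gives SLC50A1 a q-value of 0.229, SLC44A4 0.174 and SLC39A8 0.0942, and only SLC30A4 and SLC43A1 have q-values under 0.05.

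Of 8 amino acid carriers 4 were higher and 4 lower. The largest difference was that of SLC16A10, also called TAT1, which carries aromatic amino acids (chromosome 6, 111408781 to 111544606). It stood at 5.22 FPKM with ebastine and 8.76 FPKM with vehicle, 1.57-fold lower, with a q-value of 0.0155 in the authors' deposited table. SLC43A1 (LAT3), a facilitative carrier of leucine and other large neutral amino acids first described in prostate cancer (chromosome 11, 57252004 to 57283192), stood at 84.5 FPKM with ebastine and 118 FPKM with vehicle. It was 1.40-fold lower and the most abundant amino acid carrier of the set. Its close relative SLC43A2 (LAT4) went the other way, at 10.7 FPKM with ebastine and 8.19 FPKM with vehicle, 1.27-fold higher.

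SLC7A11 (xCT), which exchanges glutamate for the cystine used to make glutathione, was at 10.4 FPKM with ebastine and 13.97 FPKM with vehicle, and SLC1A4 (ASCT1), which carries alanine, serine and cysteine, was at 3.10 FPKM with ebastine and 4.24 FPKM with vehicle. They were 1.32-fold and 1.28-fold lower, and the authors' deposited table gives both a q-value above 0.05. The reported locus of SLC7A11 is 2.75 times as long as the reference gene, so its value can include other transcripts. After centring, which by construction brings a typical lower listed gene near 0, their ratios were -0.09 each.

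The 3 listed members of the SLC38 family of sodium-coupled neutral amino acid transporters were all higher with ebastine, by nearly the same amount. SLC38A10 stood at 36.8 FPKM with ebastine and 26.95 FPKM with vehicle. SLC38A7, a lysosomal exporter of glutamine, stood at 6.44 FPKM with ebastine and 4.58 FPKM with vehicle. SLC38A6 stood at 8.04 FPKM with ebastine and 5.86 FPKM with vehicle. Their log2 ratios were 0.44, 0.42 and 0.40, and the authors' deposited table gives all 3 a q-value above 0.05. Such ratios are not particular to this family, since SLC16A13 stood at 0.43 and SLC4A10 at 0.42.

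Of 6 members that carry sugars or sugar nucleotides 5 were higher. SLC2A6 (GLUT6), a hexose transporter of lysosomal membranes, was at 11.2 FPKM with ebastine and 7.68 FPKM with vehicle, 1.41-fold higher. SLC35D2, which brings nucleotide sugars into the Golgi apparatus, was at 15.5 FPKM with ebastine and 11.9 FPKM with vehicle. The authors' deposited table gives SLC2A6 a q-value of 0.0301 and SLC35D2 a q-value of 0.207. The other 3 had a mean under 1 FPKM. SLC5A1 (SGLT1), the sodium-driven glucose importer of gut and kidney, was at 1.34 FPKM with ebastine and 0.545 FPKM with vehicle. SLC45A2, known for its role in melanosomes, was at 0.761 FPKM with ebastine and 0.328 FPKM with vehicle. SLC2A3 (GLUT3), a high-affinity glucose importer, was the one lower member, at 0.154 FPKM with ebastine and 0.524 FPKM with vehicle. In the authors' deposited table, whose log2 fold change has no pseudocount, these 3 stood at 1.30, 1.22 and -1.76. The glucose importer SLC2A1, left out of the set, was 1.39-fold lower.

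Monocarboxylate carriers were lower in 3 of 4 cases, beside 1080 of all 1947 listed genes. SLC16A6 (chromosome 17, 66255323 to 66417000), known for exporting ketone bodies from liver cells, had the lowest ratio of the 34 members. It stood at 2.22 FPKM with ebastine and 4.27 FPKM with vehicle, 1.64-fold lower, with a q-value of 0.00723 in the authors' deposited table. Its reported locus is 6.61 times as long as the reference gene and overlaps that of the listed sulfatase gene ARSG, itself 1.38-fold lower, so reads of the pair may not be separable. SLC16A14, a family member with few known substrates, was at 6.84 FPKM with ebastine and 9.76 FPKM with vehicle, and its reported locus is 4.74 times as long as the reference gene. SLC16A7 (MCT2), a high-affinity pyruvate and lactate carrier, was at 0.783 FPKM with ebastine and 1.07 FPKM with vehicle, a mean under 1 FPKM. SLC16A13 was the exception, at 3.45 FPKM with ebastine and 2.29 FPKM with vehicle, 1.35-fold higher. Of the 4, only SLC16A13 had both a mean of at least 1 FPKM and a reported locus near the reference length. The authors' deposited table gives SLC16A14, SLC16A7 and SLC16A13 q-values above 0.05. With SLC16A10, which shares the family but carries amino acids, 4 of the 5 listed SLC16 members were lower, and the lactate exporter SLC16A3, left out of the set, was 1.55-fold lower.

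The nucleoside carriers were split. SLC29A1 (ENT1), the main equilibrative nucleoside transporter and a route of entry for nucleoside drugs (chromosome 6, 44187242 to 44201888), was at 36.6 FPKM with ebastine and 48.5 FPKM with vehicle, 1.31-fold lower, and after centring its ratio was -0.07. SLC29A2 (ENT2) was at 24.0 FPKM with ebastine and 18.6 FPKM with vehicle, 1.28-fold higher. The authors' deposited table gives both a q-value above 0.05.

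**Figure D2:**
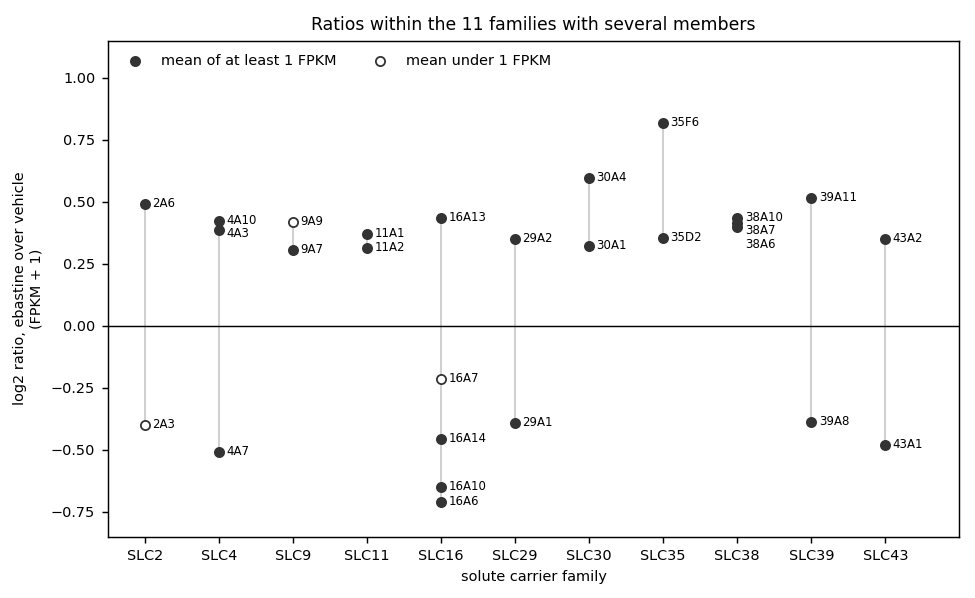
Log2 ratio of ebastine over vehicle (FPKM + 1) of members in the 11 families with several members; filled points have a mean of at least 1 FPKM and open points a mean under 1 FPKM, and grey lines join a family's highest and lowest member. In 6 of the 11 families (SLC2, SLC4, SLC16, SLC29, SLC39 and SLC43) members lie on both sides of 0. All 3 SLC38 members lie between 0.40 and 0.44, a range that also holds members of SLC4, SLC9 and SLC16.

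Of 7 metal ion carriers 6 were higher with ebastine. SLC30A4 (ZnT4), which moves zinc from the cytosol into vesicles (chromosome 15, 45774680 to 45848928), stood at 62.9 FPKM with ebastine and 41.2 FPKM with vehicle. It was 1.51-fold higher, with a q-value of 0.00466 in the authors' deposited table. Its reported locus is 1.72 times as long as the reference gene, so its value can include other transcripts. SLC30A1 (ZnT1), the zinc exporter of the cell surface, was at 9.76 FPKM with ebastine and 7.61 FPKM with vehicle, a log2 ratio of 0.32. Its q-value as deposited by the authors was 0.302, the largest among the 39 members. Both listed members of this exporter family were thus higher, but only SLC30A4 had a q-value under 0.05. The importers were split, and SLC39A8 (ZIP8), which brings zinc, manganese and iron into cells (chromosome 4, 103172198 to 103266655), was the one lower metal carrier, at 98.3 FPKM with ebastine and 129 FPKM with vehicle. It was 1.31-fold lower, with a q-value of 0.0942 in the authors' deposited table, and after centring its ratio was -0.06. SLC39A11 (ZIP11) was at 20.01 FPKM with ebastine and 13.7 FPKM with vehicle, 1.43-fold higher. Among the 7 metal ion carriers, only 2 had a deposited q-value under 0.05, SLC30A4 and SLC39A11, both higher.

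The proton-coupled metal carriers SLC11A2 (DMT1), the iron importer of gut and endosomes, and SLC11A1 (NRAMP1), known from the phagosomes of macrophages, were 1.24-fold and 1.29-fold higher. SLC11A2 was at 25.4 FPKM with ebastine and 20.2 FPKM with vehicle, whereas SLC11A1 was at 1.46 FPKM with ebastine and 0.904 FPKM with vehicle. The magnesium carrier SLC41A2 was 1.22-fold higher and had the ratio closest to 0 of the 34 members, 0.29. The metal-sensing factor MTF1 is known to induce the zinc-binding metallothioneins as well as SLC30A1, and a role of MTF1 here was not tested. Of 9 metallothionein and metal response genes 2 were in the table and both were lower. MT1X was at 143 FPKM with ebastine and 208 FPKM with vehicle, and MT2A was at 252 FPKM with ebastine and 352 FPKM with vehicle. Their q-values in the authors' deposited table were 0.0165 and 0.0397, and after centring their ratios were -0.20 and -0.15.

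The windows before the starts of the 4 listed zinc carriers, SLC30A1, SLC30A4, SLC39A8 and SLC39A11, are shown because SLC39A8 differed from the others in direction and because the element bound by MTF1, the metal response element, is known from the mouse counterpart of the first. Each is the 250 bases before the gene start in RefSeq's GRCh38.p14 annotation, on the minus strand, read 5′ to 3′ (chr1:211579162-211579411, chr15:45522756-45523005, chr4:102345254-102345503 and chr17:73092689-73092938), and capitals mark matches on either strand to the core of that element, TGCGCNC or TGCACNC.
SLC30A1: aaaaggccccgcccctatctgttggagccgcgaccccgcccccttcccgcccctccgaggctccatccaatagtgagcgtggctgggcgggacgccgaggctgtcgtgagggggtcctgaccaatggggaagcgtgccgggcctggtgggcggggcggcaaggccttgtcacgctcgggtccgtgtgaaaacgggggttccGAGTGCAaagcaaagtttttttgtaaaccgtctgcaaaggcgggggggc
SLC30A4: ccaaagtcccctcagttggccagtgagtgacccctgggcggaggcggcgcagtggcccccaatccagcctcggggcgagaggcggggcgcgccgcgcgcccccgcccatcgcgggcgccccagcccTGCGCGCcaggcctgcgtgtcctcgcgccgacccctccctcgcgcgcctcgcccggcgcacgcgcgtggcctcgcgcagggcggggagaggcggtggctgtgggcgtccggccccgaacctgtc
SLC39A8: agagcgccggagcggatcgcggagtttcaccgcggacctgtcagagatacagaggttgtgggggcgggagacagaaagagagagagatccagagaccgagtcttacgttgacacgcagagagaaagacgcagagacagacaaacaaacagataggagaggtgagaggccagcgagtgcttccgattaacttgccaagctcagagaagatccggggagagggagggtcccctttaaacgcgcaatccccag
SLC39A11: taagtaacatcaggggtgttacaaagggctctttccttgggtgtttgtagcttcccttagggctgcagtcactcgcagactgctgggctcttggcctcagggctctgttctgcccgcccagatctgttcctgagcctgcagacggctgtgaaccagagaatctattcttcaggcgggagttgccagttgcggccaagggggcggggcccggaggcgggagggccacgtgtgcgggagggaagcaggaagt
The SLC30A1 and SLC30A4 windows hold 1 match each, and the windows of SLC39A8 and SLC39A11, which lay on opposite sides, hold 0. Over the longer window of 250 bases before to 50 after the start, a match was found in 3 of 7 metal ion carriers, in 15 of the 31 members with a promoter in the reference table (48.4%), in 38.2% of 1384 listed genes and in 29.3% of all 27305 promoters. The core is short and rich in G and C, so a match describes these letters and is not evidence of a bound site. Matches to ACGTG or GCGTG, the core of the hypoxia response element, were found in 23 of the 31 members (74.2%), 63.4% of listed genes and 48.4% of all promoters. The amino acid response core TGATGCA was in 1 of the 31, SLC38A7, or 3.23%, beside 2.69% of all promoters, and the antioxidant response core TGACNNNGC in 3 of the 31, or 9.68%, beside 13.6%. Both strands were searched, and matches may overlap one another.

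Carriers that move bicarbonate, protons or chloride were higher in 6 of 7 cases. In the SLC9 family of sodium-proton exchangers, SLC9A7 (NHE7) of the trans-Golgi network was at 3.83 FPKM with ebastine and 2.91 FPKM with vehicle. SLC9A9 (NHE9), an endosomal relative, was also higher, at only 0.537 FPKM with ebastine and 0.149 FPKM with vehicle. The mean of SLC9A9 was under 1 FPKM, and its log2 fold change in the authors' deposited table, which has no pseudocount, was 1.85. That table gives SLC9A7 and SLC9A9 q-values above 0.05.

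The potassium-chloride cotransporter SLC12A7 (KCC4) was at 22.0 FPKM with ebastine and 16.8 FPKM with vehicle, 1.29-fold higher. In the SLC4 bicarbonate family, the chloride-bicarbonate exchanger SLC4A3 and the sodium-coupled SLC4A10 were 1.31-fold and 1.34-fold higher at low levels. SLC4A3 was at 2.71 FPKM with ebastine and 1.83 FPKM with vehicle, and SLC4A10 was at 1.60 FPKM with ebastine and 0.937 FPKM with vehicle. The authors' deposited table gives SLC12A7 and SLC4A3 q-values above 0.05 and SLC4A10 a q-value of 0.00466. SLC4A7 (NBCn1), a sodium-bicarbonate importer that opposes acid load, was the one lower member of the class, at 5.89 FPKM with ebastine and 8.81 FPKM with vehicle. It was 1.42-fold lower, with a q-value of 0.00178 in the authors' deposited table. Of 6 carbonic anhydrases, the enzymes that make bicarbonate, CA9 was in the table, at 0.827 FPKM with ebastine and 3.70 FPKM with vehicle. CA9 was 2.57-fold lower, with a q-value of 0.177 in the authors' deposited table, above 0.05.

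The highest ratio of the 34 members was that of SLC35F6 (chromosome 2, 26987142 to 27004099), a member of the nucleotide sugar transporter family reported in lysosomes and without a settled substrate. It stood at 10.2 FPKM with ebastine and 5.38 FPKM with vehicle, 1.76-fold higher, with a q-value of 0.00178 in the authors' deposited table. SLC44A4, a carrier of thiamine pyrophosphate in colon, was at 78.4 FPKM with ebastine and 61.5 FPKM with vehicle, 1.27-fold higher. Its reported locus (3163718 to 3179566) is on an alternative haplotype of chromosome 6, whose sequence is near-identical to the main copy. SLC22A15, of the organic ion family, was at 1.66 FPKM with ebastine and 0.848 FPKM with vehicle. SLC10A7, a bile acid family member needed for normal protein glycosylation, was the one lower carrier of this mixed class, at 5.12 FPKM with ebastine and 6.74 FPKM with vehicle. The antisense RNA SLC26A4-AS1 was at 0.856 FPKM with ebastine and 1.64 FPKM with vehicle. Its reported locus is 11.6 times as long as the reference gene, which overlaps SLC26A4, and the strand setting is not given, so reads of the pair cannot be told apart.

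Other genes that move or handle the same solutes were counted from fixed lists. Of 42 solute carriers whose names do not start with SLC, 7 were in the table, 6 higher and 1 lower. The lysosomal cholesterol exporter NPC1 was 1.71-fold higher, the magnesium carrier NIPAL2 1.60-fold and the mitochondrial pyruvate carrier subunit MPC1 1.55-fold, at 51.6 FPKM with ebastine and 32.9 FPKM with vehicle. The authors' deposited table gives these 3 a q-value under 0.05. The heme carrier family member FLVCR2, MFSD5 and NIPAL3 were 1.32-fold, 1.28-fold and 1.23-fold higher, and TUSC3, which has been linked to magnesium uptake and to glycosylation, was 1.31-fold lower.

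The sodium pump regulators FXYD3 and FXYD5 were 1.31-fold and 1.44-fold higher with ebastine. Of 15 genes of the amino acid deprivation response, which is known to induce several amino acid carriers, 4 were in the table and all 4 were lower: MTHFD2 by 1.52-fold, DDIT4 by 1.29-fold and ASNS by 1.27-fold, with VLDLR at a log2 ratio of -0.32. Of 9 glutathione genes GCLC was in the table, 1.29-fold lower. The authors' deposited table gives MTHFD2 a q-value of 0.0175. It gives DDIT4, ASNS, VLDLR, GCLC, FXYD3 and FXYD5 q-values above 0.05. After centring, which by construction brings a typical lower listed gene near 0, the ratios of DDIT4, ASNS, VLDLR and GCLC lay between -0.05 and -0.01.

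**Figure D3:**
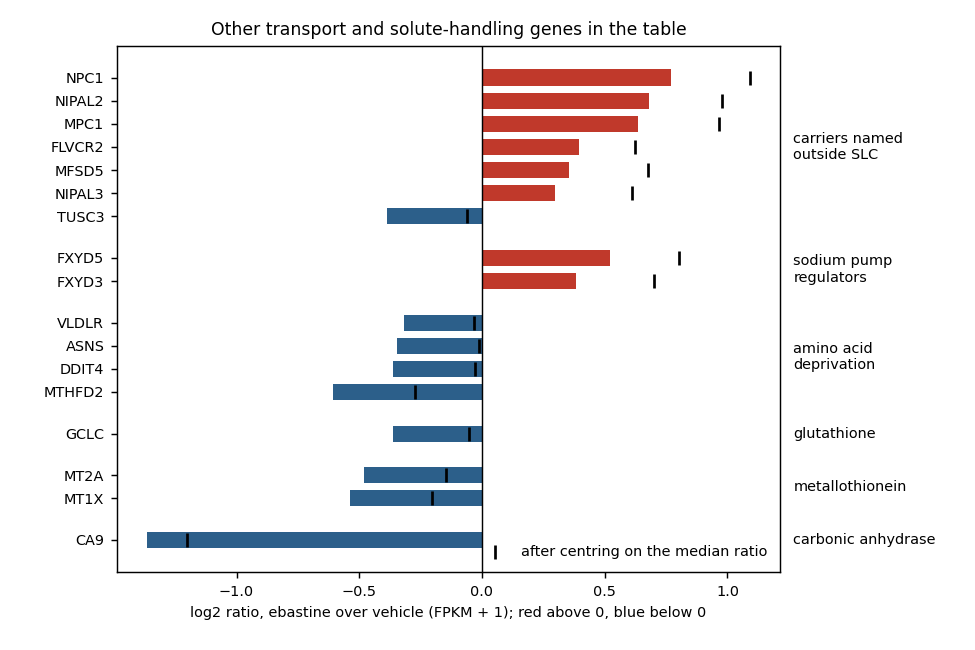
Log2 ratio of ebastine over vehicle (FPKM + 1) of the listed genes from 6 lists of related genes; bars give the ratio on the authors' scaling (red above 0, blue below 0) and black ticks the ratio after centring. NPC1 is highest at 0.77 and CA9 lowest at -1.36, the latter with a q-value of 0.177 in the authors' deposited table. The 4 amino acid deprivation genes lie below 0. After centring 3 of them lie close to 0, where centring by construction brings a typical lower listed gene.

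The ATP-driven ABC transporters, the other large class of membrane transporters, had 4 genes in the table, 2 higher and 2 lower. ABCC5 and ABCC10 were 1.47-fold and 1.31-fold higher, and ABCG1 and ABCC4 were 1.45-fold and 1.32-fold lower. With 4 genes and 1 library per group, no test of a difference from the solute carriers was possible.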

How the data were processed

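Polyadenylated RNA of 2 C4-2 cultures was sequenced, 1 library with ebastine and 1 with vehicle. The submitters' processing notes name TopHat2, Cuffdiff and hg19, with no versions. Per the file headers, the table is a Cuffdiff gene comparison with FPKM values from the authors. It also gives the authors' log2 fold change (ebastine over vehicle), their test statistic (a score that stayed unused), and a p-value with its q-value as deposited. The sources used here do not give the gene models, the strand setting or how libraries were scaled. Positions are in hg19, with starts moved from a count that begins at 0.

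Ratios were computed in Python 3.11.15 with a pseudocount of 1 FPKM, over genes averaging 1 FPKM or more, and the calculation was tested on simulated data. Alternatives were other pseudocounts, minimum means, scalings, fold limits and a q-value limit. Substrate classes were assigned by hand. Every member could be named; those past 1.5-fold or among the 6 most abundant are given in full. Members, lists and classes were chosen with earlier results of these data known. Promoter sequences are RefSeq's (GRCh38.p14), matched by symbol for 31 of 39 members. Depth is unknown. The values of 2 genes are not reported here or drawn in the figures; counts include them.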

Additional observations from a re-analysis of the deposited data

How the results depend on the processing

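The median log2 ratio of the members stayed above 0 and no member changed direction under the settings tried, but counts past a fold limit moved. The count of members higher by 1.5-fold or more, 2, was 5 at a pseudocount of 0.1 FPKM, 0 at a pseudocount of 5 FPKM, 20 after centring on the median ratio, 9 with upper quartile scaling, 0 at a limit of 2-fold and 19 at the lowest fold limit tried. The 2 at least 1.5-fold lower became 0 with a pseudocount of 5 FPKM, 1 when a mean of 5 FPKM was required, 0 after centring, 0 with upper quartile scaling, 0 at a limit of 2-fold and 11 at the lowest fold limit tried. Without the 6 members with an uncertain locus (a setting chosen after seeing the data), both counts were 1, and 7 members were lower by any amount, against 11 with them. When the authors' deposited table had to give a member a q-value under 0.05, 7 were higher and 5 lower, since fewer genes were counted. The median of 0.35 became 0.20 with a pseudocount of 5 FPKM, 0.64 after centring and 0.53 with upper quartile scaling. A pseudocount pulls ratios towards 0, most for low genes, and centring moves low genes less than abundant ones. The reference for centring was the median of a list selected by p-value, in which more genes were lower. No paired analysis was possible because each group held 1 library.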

Other observations

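The 10 members placed inside the cell were all higher with ebastine. The grouping was made after the values were seen, from textbook locations, and is a description without a test. Of the 10 members placed in lysosomes, endosomes, the Golgi apparatus, vesicles or melanosomes (SLC2A6, SLC9A7, SLC9A9, SLC11A1, SLC30A4, SLC35D2, SLC35F6, SLC38A7, SLC45A2 and SLC50A1), 10 were higher and 0 lower. Of the 20 placed at the cell surface, 10 were higher and 10 lower. The other 8 carriers were not placed, 6 of them higher and 2 lower. They include SLC11A2, of gut and endosomes, which was higher, and SLC10A7, needed for normal protein glycosylation, which was lower. With SLC10A7 placed inside the cell, the members there would not all be higher. The 8 intracellular members that averaged 1 FPKM or more had ratios from 0.31 to 0.82 with a median of 0.39, and the 17 surface members at that level had ratios from -0.71 to 0.53 with a median of 0.32. Summed FPKM was 247 with ebastine and 182 with vehicle for the intracellular members, and 412 with ebastine and 463 with vehicle for the surface members. The 2 most abundant members of each group carried much of these sums. SLC50A1 and SLC30A4 made up 197 FPKM with ebastine and 149 FPKM with vehicle of the first. Without SLC39A8 and SLC43A1, both lower, the other 18 surface members summed to 229 FPKM with ebastine and 216 FPKM with vehicle, so the surface sum was then higher with ebastine. Several proteins have more than 1 location, so a different assignment would change these counts.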
